A study of Mus musculus with 29 samples.

Results

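RPC4 occupancy in regenerating mouse liver was compared at 60 h (TP60) and 36 h (TP36) after partial hepatectomy (PH), the surgical removal of most of the liver. The comparison used 4 of the 29 samples of the series, 2 libraries per time point, and the score of every one of the 646 Pol III loci of the deposited table. Each library was made with an antibody against RPC4, a subunit of RNA polymerase III (Pol III), from a pool of liver from 3 male C57BL/6 mice of 12 to 14 weeks that were kept on a light-dark cycle, fed at night and carried no engineered allele. All 4 libraries came from operated animals, TP36 lying in S phase and TP60 in a second, less synchronous round of division. The pools hold all cells of the liver, so that fewer cells with an occupied locus and less polymerase per cell cannot be told apart. The table lists Pol III loci only, with no liver marker genes, so that the labelled tissue could not be checked.

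The RPC4 occupancy score compares, on the log2 scale, ChIP fragments with input fragments over a locus and its flanks. A locus was counted as occupied when its score was above the cutoff given for that library in at least 1 of the 4 libraries, which held for 490 loci (297 of 433 tRNA genes, 110 of 127 SINEs, 49 of 51 Rn5S genes, 20 of 20 Rn4.5S genes and 14 of 15 genes of the class other). At the edge of the rule, a B2_Mm2 SINE of chromosome 11 passed the cutoff of TP36 replicate 1 by 0.005, and a B2_Mm2 SINE of chromosome 19 missed that of TP60 replicate 2 by a similarly small amount (-0.0043). The occupied loci were nearly the same at both times, since 4 loci were above a cutoff at TP36 only and 4 at TP60 only, and 419 loci were above it in all 4 libraries.

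Pol III makes short untranslated RNAs and reaches its genes in different ways. In tRNA genes and in SINEs such as B1 and B2, transcription factors bind inside the transcribed region, at the A and B boxes, and 5S rRNA genes (Rn5S) have an internal promoter of their own kind. Genes with a type 3 promoter, which include the U6, 7SK, RNase P, RNase MRP and Y RNA genes, are instead read from elements upstream of the start, a proximal sequence element and a TATA box. In the regenerating liver Pol III supplies the tRNAs and 5S rRNA that growing cells need.

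The sequences below are those of loci whose values carry the results, taken from the NCBI37 (mm9) genome in the direction of transcription. The first pair is from the Rn4.5S genes, which code for a small RNA found in some rodents with a sequence like that of B1. It shows a copy of the tandem array (chr6:47604999-47605093, minus strand), whose letters are shared by 12 of the 20 genes, and a copy of the distal group (chr6:128714147-128714241, minus strand), which differs from it at 6 positions. Capitals mark a match to the B box core GTTCNANNC, searched on the strand of the locus.
Rn4.5S, tandem copy: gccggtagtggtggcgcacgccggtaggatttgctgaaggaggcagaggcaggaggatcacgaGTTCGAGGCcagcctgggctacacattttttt
Rn4.5S, distal copy: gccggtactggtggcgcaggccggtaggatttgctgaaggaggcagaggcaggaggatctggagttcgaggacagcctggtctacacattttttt
That core was found in all 14 tandem copies and in none of the 6 distal ones, and in 93.9% of the occupied tRNA genes and 56.4% of the occupied SINE loci. In all 646 loci the share was 73.1%.

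The second set shows the 80 bases upstream of 4 genes of the class other that were lower relative to the rest of the library at TP60. They are Rpph1 (chr14:51427448-51427527, minus strand), Rmrp (chr4:43505931-43506010, minus strand), Rn7sk (chr9:78023441-78023520, minus strand) and Rny1 (chr6:47738180-47738259, minus strand). Capitals mark TCACC, letters often found in proximal sequence elements, and TATA within 40 bases of the start.
Rpph1, upstream: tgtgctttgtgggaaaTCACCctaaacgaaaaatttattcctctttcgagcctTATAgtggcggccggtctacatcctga
Rmrp, upstream: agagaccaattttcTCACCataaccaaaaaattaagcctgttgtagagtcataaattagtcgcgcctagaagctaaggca
Rn7sk, upstream: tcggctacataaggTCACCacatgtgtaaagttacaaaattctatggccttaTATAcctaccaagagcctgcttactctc
Rny1, upstream: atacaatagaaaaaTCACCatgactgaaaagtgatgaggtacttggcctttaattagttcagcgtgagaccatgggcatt
The letters TCACC were chosen after these windows had been read, on the strand of the locus only. They stood 64 to 67 bases before the start in 8 of the 14 occupied genes of the class, against 8.51% of all 646 loci with a match anywhere in the same window. TATA, searched on the same strand, was found in 7 of the 14 and in 16.3% of all loci.

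The third set is from loci that were higher relative to the rest at TP60. n-Tm2 (chr13:21998980-21999051, plus strand) and n-Tm10 (chr13:22023038-22023109, minus strand) both have the anticodon of methionine and differ at 1 of 72 positions, and neither holds the B box core as spelled above. The last line is n-Tk25 (chr1:134930904-134930976, minus strand), which has the same 73 bases as 5 other occupied lysine tRNA genes, with the core in capitals.
n-Tm2: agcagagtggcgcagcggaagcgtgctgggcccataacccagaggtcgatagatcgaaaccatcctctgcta
n-Tm10: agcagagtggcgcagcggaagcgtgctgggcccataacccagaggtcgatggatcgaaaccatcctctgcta
n-Tk25: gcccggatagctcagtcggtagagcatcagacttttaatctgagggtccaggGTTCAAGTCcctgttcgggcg

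The replicates of each time point were shifted against each other as whole libraries. The median score over the occupied loci was 4.66 and 3.96 in TP36 replicates 1 and 2, and 4.21 and 5.24 in TP60 replicates 1 and 2. TP60 was therefore lower than TP36 by this median in replicate 1 (-0.45) and higher in replicate 2 (1.28), and the time points overlapped. The median at TP48 was 4.28 and 4.70, within the same range. On scores as deposited, 399 of the 490 loci had a higher mean at TP60, with a median difference of 0.43.

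TP36 replicate 2 stood apart from the other 3 libraries. Its scores over the occupied loci correlated with those of TP36 replicate 1, TP60 replicate 1 and TP60 replicate 2 at Pearson r of 0.906, 0.897 and 0.859, whereas those 3 libraries correlated with each other at 0.967 to 0.983. Loci are not independent replicates, and these values describe the libraries only. The spread of the scores was also smaller in TP36 replicate 2, with an interquartile range of 2.49 against 3.06 to 3.21 in the others. The counts of classes, families, chromosomes and isotypes below are therefore given also without this library, an alternative chosen after the data had been seen.

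Locus by locus, no difference between TP60 and TP36 passed the test, with or without the library-wide shift. With the moderated test of limma over the 8 RPC4 libraries, 0 of 490 occupied loci had a q value under 0.05 on scores as deposited (0.0%), and 7 had an unadjusted p under 0.05, all of them higher at TP60. Relative scores were then formed by subtracting from each library its median over the occupied loci. On these, 0 of 490 loci were called (0.0%) by q or by the Benjamini-Hochberg adjustment, and 11 had an unadjusted p under 0.05, 5 higher and 6 lower. The lowest q was 0.567 and the median standard error of a relative shift was 0.34. The replicates shared almost nothing of the relative shift over the 490 loci, with r of 0.01 between replicate 1 and replicate 2, although for tRNA genes alone r was 0.15. All shifts below are on the log2 scale of relative scores unless stated otherwise, TP60 minus TP36.

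As a description of the direction, loci were counted whose TP60 libraries both lay above, or both below, both TP36 libraries on relative scores. Of the 490 occupied loci 83 lay above (16.9%) and 75 below (15.3%). Against TP36 replicate 1 alone, both TP60 libraries lay above at 102 loci (20.8%) and below at 180 (36.7%). The shares of each class are read against these values. By replicate number, 131 loci were higher in both replicates (26.7%) and 111 lower in both (22.7%), but the numbers were not taken to pair the libraries.

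**Figure D1:**
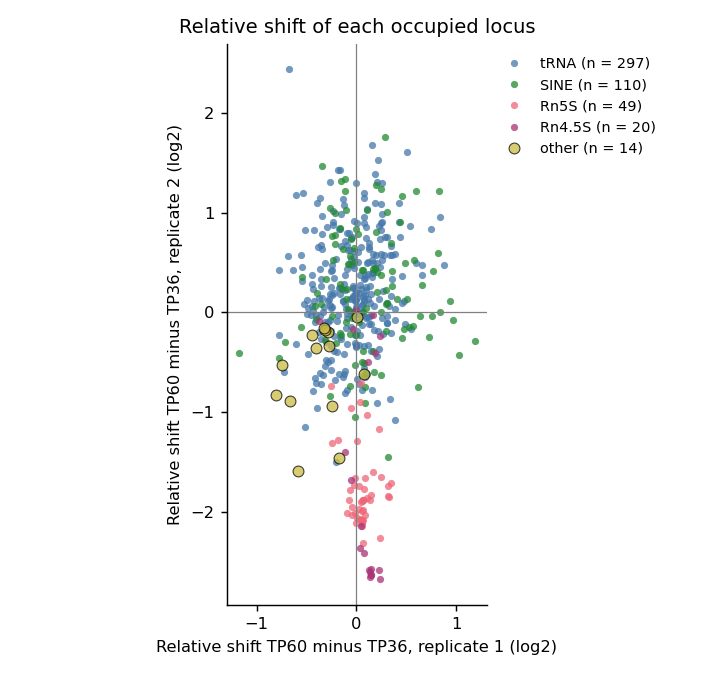
Relative shift of the RPC4 score (TP60 minus TP36, log2) of each occupied locus in replicate 1 (x axis) and replicate 2 (y axis), with colours for the locus classes. The Rn5S and most Rn4.5S genes lie near 0 in replicate 1 and between -2.68 and -0.70 in replicate 2, and 12 of the 14 genes of the class other lie below 0 on both axes.

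Genes of the class other, mostly with type 3 promoters, had lower relative scores at TP60. Their median shift was -0.36, with -0.32 in replicate 1 and -0.44 in replicate 2, beside 0.02 over all occupied loci. Both TP60 libraries lay below both TP36 libraries at 9 of the 14 genes and above at 0, against the 15.3% and 16.9% of all occupied loci. Without TP36 replicate 2, 10 of 14 lay below and 0 above, against 36.7% and 20.8%. With libraries centred on all 646 loci, 5 of 14 lay below and 0 above and the median was -0.16, with -0.03 in replicate 2. None of the 14 genes passed the test.

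Rpph1 codes for the RNA subunit of RNase P, the enzyme that trims the front end of tRNA precursors, and its relative score was -0.65 and -0.51 at TP36 and -1.24 and -2.11 at TP60. The groups did not overlap, and the shift of -1.09 (SE 0.41), a 2.13-fold lower relative occupancy, came from both replicates (-0.59 and -1.60). Rpph1 lies outside protein-coding genes, 0.174 kb from the start of Parp2. Rmrp, which codes for the RNA of the related RNase MRP and overlaps the annotated start of Ccdc107, had 0.66 and 0.83 at TP36 and 0.00 and -0.06 at TP60. Its shift was -0.78 (SE 0.37), with no overlap and a difference within each time point below 0.2.

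Rn7sk, whose 7SK RNA holds the elongation factor P-TEFb in an inactive complex, had relative scores of 0.82 and 1.26 at TP36 and 0.02 and 0.43 at TP60. The shift was nearly the same in replicate 1 (-0.80) and replicate 2 (-0.83), and the mean was -0.81 (SE 0.36). On scores as deposited the same gene had 5.49 and 5.23 at TP36 and 4.23 and 5.67 at TP60, where the groups overlap. The separation thus appeared only after the library medians had been taken out.

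The Y RNA genes Rny1 and Rny3, whose RNAs bind the Ro60 protein, are neighbours on chromosome 6. Rny1 had relative scores of -0.03 and 0.09 at TP36 and -0.77 and -0.43 at TP60, with a shift of -0.63 (SE 0.32) and no overlap. Rny3 had 0.38 and 1.48 at TP36 and 0.14 and 0.54 at TP60, and here TP60 replicate 2 lay above TP36 replicate 1.

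The 5 Rnu6 genes, which code for the U6 RNA of the spliceosome, had shifts from -0.38 to -0.24. At 3 of them both TP60 libraries lay below both TP36 libraries, against 15.3% of all occupied loci. Without TP36 replicate 2 the same number lay below, against 36.7% of all occupied loci. The copy of chromosome 12 that begins at 53704775 had -0.32 and -0.32 at TP36 and -0.73 and -0.68 at TP60. A copy of chromosome 10 (start 79448251) had -2.45 and -2.42 at TP36 and -2.37 and -3.03 at TP60, so that only replicate 2 was lower. Rnu6atac, which serves the minor spliceosome, had 1.37 and 1.47 at TP36 and 0.93 and 1.24 at TP60, with no overlap.

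The remaining occupied genes of the class, with internal promoters, had shifts from -0.82 to -0.02. The Rn7sl copies code for the RNA of the signal recognition particle, and they differed from each other: the copy of chromosome 12 that begins at 70260298 had 1.17 and 1.77 at TP36 and 0.99 and 0.31 at TP60, whereas the copy at 70462167 had 1.14 and 1.08 at TP36 and 1.14 and 1.03 at TP60. Fragments with several matches in the genome gave up to 9.83% of the score of the former and up to 1.58% of the latter. Vaultrc5, a vault RNA gene, had 1.72 and 1.34 at TP36 and 1.39 and 1.18 at TP60, which overlap. Bc1, which codes for a neuronal RNA, was below the cutoff in all 4 libraries, with scores as deposited of 0.83 and 0.50 at TP36 and 0.27 and 1.16 at TP60.

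**Figure D2:**
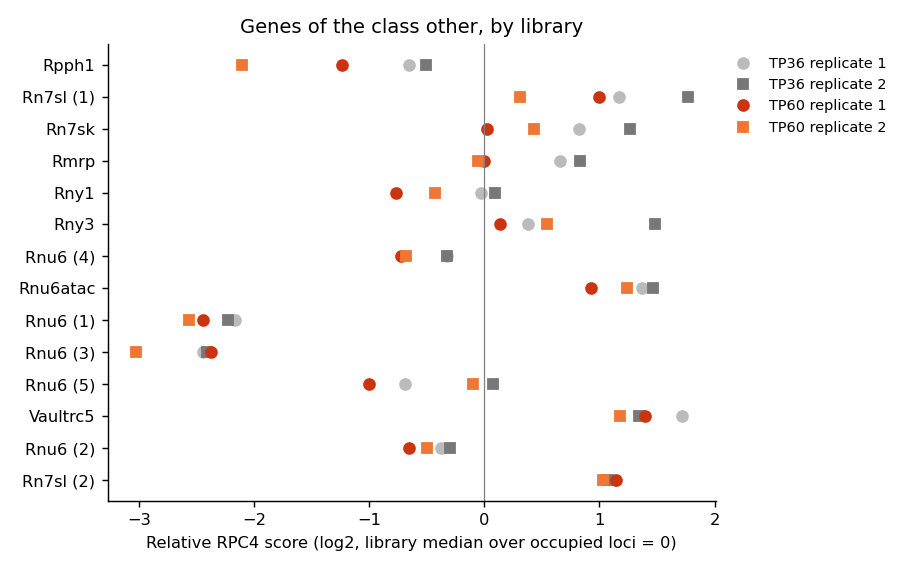
Relative RPC4 score (x axis, log2, library median over occupied loci set to 0) of the 14 occupied genes of the class other in each of the 4 libraries (grey, TP36; red and orange, TP60), ordered by shift. Rnu6 copies are numbered by position (1 on chromosome 9, 2 and 3 on chromosome 10, 4 and 5 on chromosome 12) and Rn7sl copies likewise on chromosome 12; from Rpph1 to Rny1 the TP60 points lie to the left of both TP36 points.

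Taken as a class against the tRNA genes, a measure that does not depend on the centring, the median of these genes minus that of the tRNA genes was -0.86 and -0.21 in TP36 replicates 1 and 2. At TP60 the difference was -1.27 and -0.999. The mean change was -0.60, similar to the difference between the TP36 replicates (0.64), and the exact permutation test over libraries gave p = 0.333, the smallest that 2 against 2 allows. It was -0.28 without TP36 replicate 2 and -0.92 without TP36 replicate 1. At TP48 the same difference was -0.42 and -0.990, the latter nearly equal to the -0.999 of TP60 replicate 2. For the 12 occupied genes with a type 3 promoter, which add the selenocysteine tRNA gene and leave out Rn7sl and Vaultrc5, the change was -0.56 (-0.36 and -0.75 by replicate, exact p = 0.333).

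SINEs, the retroposed repeats that Pol III occupies at a small number of genomic copies, were slightly higher at TP60 relative to tRNA genes. The median SINE score stood at -3.04 and -3.03 from that of the tRNA genes at TP36 and at -2.72 and -2.86 at TP60. The change of 0.24 (0.31 and 0.17 by replicate) exceeded the difference between replicates of either time point (0.006 and 0.14), with an exact permutation p of 0.333, the smallest possible. Before PH the difference was -2.73 and -3.07, and at TP48 -3.02 and -3.10. The value was smaller with means in place of medians (0.068) and in the 58 SINEs above the cutoff in all 4 libraries (0.083), so that its size depended on the summary and on the weakest loci.

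**Figure D3:**
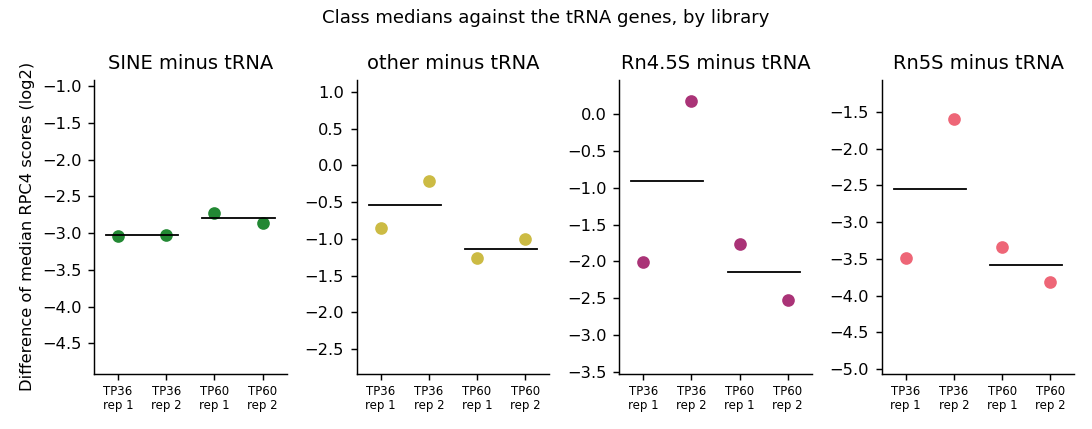
Median RPC4 score of each class minus the median of the tRNA genes (y axis, log2, same span in each panel) in the 4 libraries; black lines are means of the 2 replicates. SINE values at TP60 (-2.72 and -2.86) lie above those at TP36 (-3.04 and -3.03), and the Rn4.5S and Rn5S values of TP36 replicate 2 (0.19 and -1.60) lie far above those of the other 3 libraries.

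Both TP60 libraries lay above both TP36 libraries at 23 of 110 occupied SINEs (16.9% of all occupied loci did) and below at 7 (15.3% did). Without TP36 replicate 2 the counts were 29 above and 30 below, against 20.8% and 36.7% of all loci. The median shift of SINEs was 0.21, and it was 0.14 with centring on tRNA genes, where the replicate 2 median turned to -0.11. By family, B2 elements had 17 of 69 above and 3 below, with a median of 0.22, but without TP36 replicate 2 these were 21 above and 18 below, with a median of 0.01. B1 elements had 4 of 25 above and 3 below, with a median of 0.24, and 6 above and 7 below without that library, with a median of 0.04. The 5 occupied B4 elements had a median of -0.19, and 0 of them were separated in either direction, while 2 lay below and 0 above without TP36 replicate 2.

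The B2_Mm1a element of chromosome 19 (chr19:3831713-3831812), in an intron of Gm16066, had relative scores of -0.92 and -1.44 at TP36 and -0.32 and -0.23 at TP60, with a shift of 0.91 (SE 0.34). It was not called (q = 0.567 in limma). Fragments with multiple matches gave at most 0.665% of its score.

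Loci with shifts of opposite sign in the replicates were left out when the SINE with the lowest statistic was picked. That it was lower in both replicates follows from this choice. The B2_Mm2 element in an intron of Dlgap1 (chr17:71146704-71146803) had relative scores of -1.81 and -2.32 at TP36 and -2.99 and -2.74 at TP60, with a shift of -0.80 (SE 0.32). The SINEs with the highest scores gave no common direction. A MIR element in an intron of Polr3e, the gene of another Pol III subunit, and on the strand opposite to it (chr7:128062206-128062333), had relative scores of 1.35 and 1.04 at TP36 and 1.54 and 1.47 at TP60. The 3 B4A elements that neighbour distal Rn4.5S genes on chromosome 6 had shifts from -0.41 to 0.01, with overlapping groups, and the B3 element in an intron of Dnajc12 had 0.73 and 0.22 against 0.73 and 1.06.

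The tRNA genes, the largest class, had a median shift of 0.08, with -0.02 in replicate 1 and 0.17 in replicate 2. Both TP60 libraries lay above both TP36 libraries at 60 of 297 and below at 45, close to the shares of all loci, and without TP36 replicate 2 the counts were 72 and 123, against 20.8% and 36.7%. The 5 tRNA genes with the highest scores (n-Tl15, n-Tl10, n-Ts18, n-Tk27 and n-Th3) had shifts between -0.39 and -0.01. Of these, n-Ts18, a serine tRNA gene, had 1.94 and 2.20 at TP36 and 1.80 and 1.55 at TP60, with no overlap. By mean score, the replicate 2 median was 0.10 in the 17 tRNA genes under 2, 0.47 in the 42 genes from 2 to 4, 0.19 in the 205 genes from 4 to 6 and -0.03 in the 33 genes over 6. In replicate 1 the medians of these bands lay between -0.03 and 0.01.

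On chromosome 13, where 104 of 106 tRNA genes were occupied, relative scores at TP60 were more often higher. Both TP60 libraries lay above at 38 of the 104 and below at 8, beside 22 and 37 of the 193 occupied tRNA genes of other chromosomes. Of all occupied loci 16.9% lay above and 15.3% below. With quantile normalisation the chromosome 13 counts were 35 and 7. Without TP36 replicate 2 they were 40 and 33, beside 32 and 90 of the genes of other chromosomes, and 20.8% and 36.7% of all occupied loci. The median shift was 0.00 in replicate 1 and 0.51 in replicate 2. The median score of chromosome 13 genes minus that of the other tRNA genes was -0.09 and -0.16 at TP36 and -0.04 and 0.12 at TP60, a change of 0.17 with exact permutation p = 0.333.

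A cluster of 15 tRNA genes (chr13:21998980-22032864), picked out after its values had been seen, had higher relative scores at TP60 in both replicates. All 15 genes had a positive shift in replicate 1 (0.05 to 0.84), and 13 had one in replicate 2 (-0.39 to 1.09). Both TP60 libraries lay above both TP36 libraries at 10 of the 15 and below at 0, against 16.9% and 15.3% of all occupied loci. The same counts held without TP36 replicate 2, against 20.8% and 36.7% of all occupied loci. Its median stood at -0.54 and -0.41 from that of the other tRNA genes at TP36 and at -0.19 and -0.18 at TP60, with -3.77 and -2.87 before PH and -1.41 and -0.56 at TP48. None of its genes passed the test, and the exact p of this median over libraries was 0.333. Fragments with multiple matches gave at most 9.32% of a score in this cluster. The direction was not particular to it. Of 30 clusters with 3 or more occupied tRNA genes, 10 had a positive median shift in both replicates and 6 a negative one. Among the former, a cluster of 3 genes (chr13:23503946-23505189) had a median shift of 0.62, against 0.49 in the cluster of 15.

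The genes of this cluster code for tRNAs of several amino acids. n-Tm2 had relative scores of -1.62 and -1.77 at TP36 and -0.77 and -0.81 at TP60, so that each time point varied by less than 0.2 and the shift was 0.90 (SE 0.30). n-Tm10, which differs from it at 1 base and carries the label of an initiator methionine tRNA, had -1.53 and -2.14 at TP36 and -0.78 and -1.30 at TP60, a shift of 0.79 (SE 0.33). The intron-containing genes n-Tl11 (leucine) and n-Tr23 (arginine) had shifts of 0.55 and 0.28 with no overlap, while n-Ty5 (tyrosine), outside the cluster, had 0.04 and -0.19 at TP36 and 0.36 and -0.13 at TP60.

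**Figure D4:**
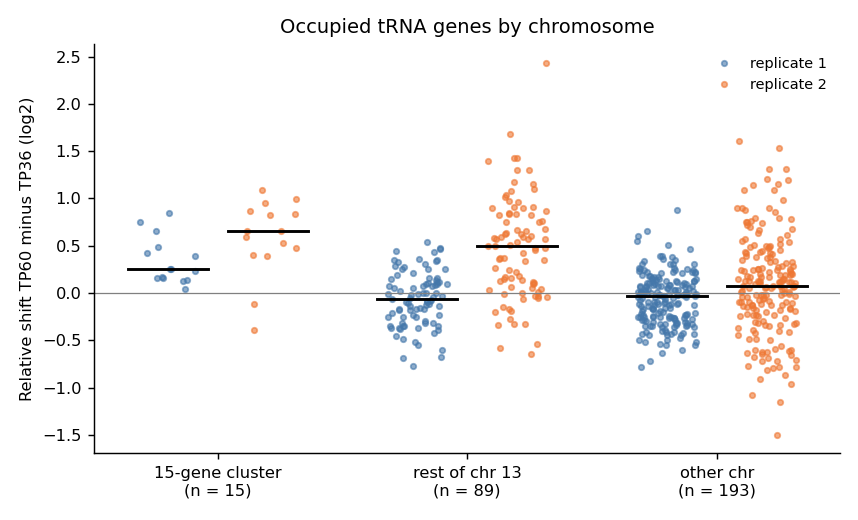
Relative shift (y axis, log2, TP60 minus TP36) of the occupied tRNA genes in replicate 1 (blue) and replicate 2 (orange) for the 15-gene cluster of chromosome 13, the rest of that chromosome and the other chromosomes; points are genes and black lines medians. In the cluster all 15 points of replicate 1 and 13 of replicate 2 lie above 0, while the median of the rest of chromosome 13 lies higher in replicate 2 only.

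The measured shifts of genes with the same or nearly the same sequence differed. The 8 occupied genes within 1 base of n-Tm10 had shifts from -0.31 to 0.90. Of these, 3 were higher and 2 lower in both replicates, beside 26.7% and 22.7% of all occupied loci. n-Tk25, a lysine tRNA gene of chromosome 1, had relative scores of -0.39 and -1.13 at TP36 and -0.17 and 0.41 at TP60, a shift of 0.87 (SE 0.38). n-Tk27 of chromosome 11, with the same 73 bases, had 1.73 and 1.95 at TP36 and 1.80 and 1.62 at TP60. Over the 192 occupied tRNA genes with at least 1 identical copy, in 49 groups, the SD of the shift within groups was 0.29 and that over all of them 0.32. The SD within groups was below the median standard error of a shift over all occupied loci (0.34). These values therefore cannot show whether identical genes shifted differently.

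Among the remaining genes with large statistics were n-Tv2 (valine), with -0.06 and -0.83 at TP36 and 0.09 and 0.85 at TP60, and n-Tf2 (phenylalanine), with -1.61 and -2.26 against -1.40 and -0.95. Most of the shift of n-Tv2, n-Tf2 and n-Tk25 came from replicate 2 (1.68, 1.31 and 1.53). n-Tt5 (threonine) had -1.60 and -1.07 at TP36 and -1.09 and 0.54 at TP60, where TP60 replicate 1 lay below TP36 replicate 2. These 3 genes and n-Tt5 lie outside protein-coding genes.

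By isotype, glutamine tRNA genes lay above at 8 of 14 and below at 0, with a median shift of 0.33, against 16.9% and 15.3% of all loci. Without TP36 replicate 2, 8 lay above and 5 below, with a median of 0.09, so that the absence of lower genes rested on that library. The shares of all occupied loci without it, for these and the following isotypes, were 20.8% and 36.7%. Lysine genes had 6 of 18 above and 1 below, and 7 above and 4 below without it. Tryptophan genes had 0 of 7 above and 4 below, with a median of -0.30, and 0 above and 6 below without TP36 replicate 2. When libraries were centred on all 646 loci, 1 tryptophan gene lay above and 1 below, with a median of -0.10. Glutamate genes had 0 of 16 above and 4 below with a median of -0.17, and 0 above and 10 below without TP36 replicate 2, but the median became 0.03 when centred on all 646 loci. Several glutamate genes belong to arrays of near-identical genes on chromosome 1. n-Te8 (chr1:173001923-173001994) had -1.08 and -1.18 at TP36 and -1.59 and -2.33 at TP60, but fragments with multiple matches gave up to 93.7% of its score. The 11 occupied tRNA genes with over 50% of the score from such fragments had a median of -0.44 (-0.12 without TP36 replicate 2), against 0.09 in the other 286, and the part of multiple matches in this was not tested.

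The tandem repeats Rn4.5S and Rn5S had the largest median relative shifts of the classes, and these came from replicate 2 alone. The median shift of Rn4.5S genes was 0.13 in replicate 1 and -2.26 in replicate 2, and that of Rn5S genes, which code for the 5S rRNA of the large ribosomal subunit, was 0.06 and -1.88. Both TP60 libraries lay below both TP36 libraries at 2 of 20 Rn4.5S and 12 of 49 Rn5S genes, against 15.3% of all occupied loci. They lay above at 0 of each, against 16.9%. Without TP36 replicate 2 the counts below were 5 of 20 and 12 of 49, against 36.7% of all occupied loci. Without that library, both classes thus lay below less often than the occupied loci as a whole. The counts above were then 0 of 20 and 1 of 49, against 20.8%.

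The library that differed was TP36 replicate 2. The median Rn4.5S score minus that of the tRNA genes was -2.01 in TP36 replicate 1, 0.19 in TP36 replicate 2, and -1.77 and -2.52 at TP60. For Rn5S the values were -3.49, -1.60, -3.34 and -3.82 in the same order. The changes of -1.23 and -1.03 were smaller than the differences between the TP36 replicates (2.20 and 1.89), with an exact permutation p of 0.667 for each. Without TP36 replicate 2 they were -0.13 and -0.09. At TP48 the Rn4.5S difference was -1.86 and -1.67, while before PH it was -0.72 in replicate 1 and 0.47 in replicate 2.

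Within Rn4.5S, tandem and distal copies differed. The 14 tandem copies (chromosome 6, first start 47600760) had a median relative score of -1.36 and 0.81 at TP36 and -1.22 and -1.79 at TP60, whereas the 6 distal copies (first start 128710725) had 1.25 and 0.97 at TP36 and 1.39 and 0.82 at TP60. The tandem median minus the distal median was -2.61 in each of TP36 replicate 1, TP60 replicate 1 and TP60 replicate 2, and -0.16 in TP36 replicate 2. Distal copies thus showed no shift of this size in any library (-0.49 to 0.02 in replicate 2).

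The percent columns follow the same division. At the tandem copy printed above, fragments with multiple matches gave 99.8% and 100.0% of the score at TP36, and its replicate 2 shift was -2.63. At the distal copy printed above the shares were 0.36% and 1.43%, and the replicate 2 shift was -0.08. The tandem copy that begins at 47600760 had at most 10.2% of its score from such fragments and a replicate 2 shift of -0.41, and 1 tandem copy with 34.6% in TP36 replicate 1 had 64.8% in TP36 replicate 2 and a shift of -1.40. Over the 20 genes the replicate 2 shift and the highest percent had r = -0.985, which describes copies that share fragments. The percent in TP36 replicate 2 was above that of all the other 3 libraries at 11 of the 20 genes. Distal copies were among these, such as the one printed above (1.43% against at most 0.71%). So was the tandem copy that begins at 47694136 (81.9% against at most 63.4%). Copies near 100.0% in every library, such as the tandem copy printed above, had almost no room to be higher. The count therefore cannot compare tandem with distal copies.

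Among the Rn4.5S genes, sequence gave the same order. Of all 40-base words in a locus extended by 150 bases on each side, 100.0% occurred in another Rn4.5S locus for most tandem copies, 14.0% for the copy that begins at 47600760, and 11.2% to 27.2% for the distal copies. The correlation of this share with the replicate 2 shift over the 20 genes was -0.97, again a description. All 49 occupied Rn5S genes had over 50% of their score from multiple matches in at least 1 library. Their smallest replicate 2 shifts (-0.70 and -0.74) were at copies where this highest share was 63.1% and 66.7%. However, a copy with 75.9% (start 126089866) had -2.26, and a copy with 87.1% (start 126096610) had -0.96. Over the 49 genes the replicate 2 shift had r = -0.48 with the highest percent. With the share of words r was -0.31, and both values were weaker than those of Rn4.5S. The part of fragments with multiple matches in the TP36 replicate 2 values was not tested.

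**Figure D5:**
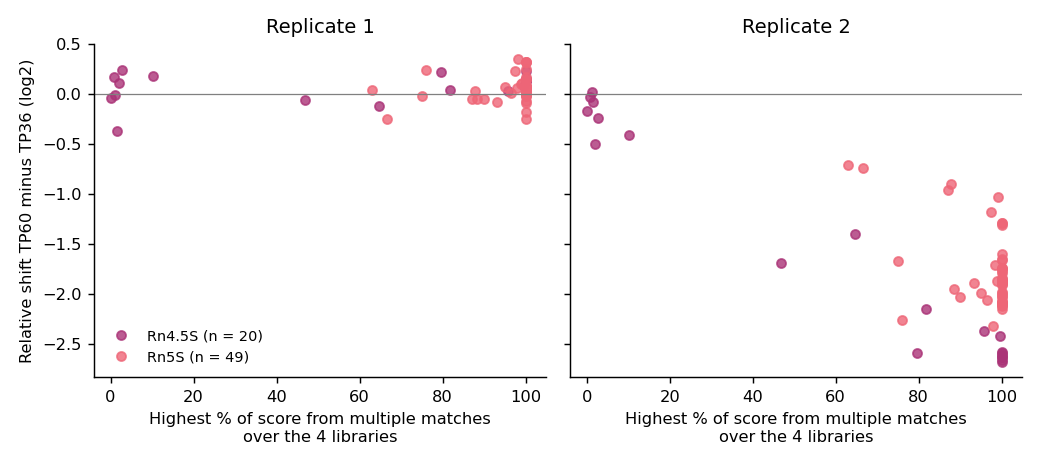
Relative shift (y axis, log2, TP60 minus TP36) of Rn4.5S and Rn5S genes against the highest percent of their score from fragments with multiple matches over the 4 libraries (x axis), for each replicate. In replicate 1 all points lie between -0.37 and 0.35, and in replicate 2 the copies with at most 10.2% lie between -0.49 and 0.02 while those with larger shares reach -2.68.

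Of the Rn5S loci, 4 entered the list of lowest statistics because they were lower in both replicates. Rn5S_like at chromosome 8, start 126125469, had relative scores of -2.71 and -1.71 at TP36 and -2.76 and -3.74 at TP60, a difference of -0.04 in replicate 1 and -2.03 in replicate 2. The others, which begin at 126144138, 126122055 and 126072856, had shifts of -0.09 and -2.01, -0.05 and -1.95, and -0.25 and -1.31. All lie in an intron of Gm20388.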

How the data were processed

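The deposited log2 scores were made by the authors for each replicate: fragments mapped to NCBI37, redundant ones removed, fragment totals brought to the samples' median, and ChIP divided by its paired input in each locus extended by 150 bp on each side, with a pseudocount of 16. Tags with up to 500 matches were kept with weights, and the deposited percent columns give the share of a score from fragments with multiple matches. The submitters' processing notes name bedtools and mm9. Per-sample columns without a sample numbered 0. Depth is unknown, no counting error could be computed, and errors reflect differences between libraries alone. Whether the 2 libraries of a time point came from separate operations is not stated for each, and p values measure the spread between these pools of 3 mice.

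The cutoffs of the table headers (0.83 to 0.87 for replicate 1 and 1.33 to 1.55 for replicate 2) defined occupied loci. limma 3.58.1 (R 4.3.3) fitted 1 mean per time point to all 8 RPC4 libraries, and TP60 minus TP36 was tested with spline-based q values (called under 0.05), on scores as deposited and after subtracting each library's median over occupied loci. The fit was run on simulated scores with independent errors of the same spread at all loci and in all libraries. That simulation holds no library that differs as TP36 replicate 2 does. Class medians were compared by two-sided exact permutation over libraries (scipy 1.17.1). The members, lists and tests were chosen with earlier results of these data known. Named loci were the 8 highest and 8 lowest moderated t among occupied loci moving alike in both replicates, all genes of the class other, n-Tl11, n-Tr23 and n-Ty5 (genes of precursor tRNAs measured in the study), and the 5 SINEs and 5 tRNA genes with the highest scores; other loci were picked after their values were seen. Of the named loci, 1 is not reported here. Sequences are from the NCBI37 genome and gene positions from GENCODE for that build. Alternatives were other adjustments, filters, centrings, left-out libraries and a replicate block.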

Additional observations from a re-analysis of the deposited data

How the results depend on the processing

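No locus was called on either scale in a fit of the 4 libraries or of the occupied loci alone, or with no occupancy filter. The same held on relative scores with any other centring, quantile normalisation or loess. A cutoff raised by 0.5 and leaving out loci with over 50% multiple matches took loci from the same fit, so that they could add no call. Nor could the Benjamini-Hochberg adjustment, whose values are never below the q values used here. Leaving out 1 library in turn gave 0 to 1 calls on scores as deposited (n-Tt5 without TP60 replicate 1) and 0 to 49 on relative scores. The 49 came without TP36 replicate 1, when TP36 replicate 2 alone stood for its time point and was assumed to vary like the other groups: all were lower at TP60, 37 were Rn5S and 12 Rn4.5S genes, and 48 had over 50% of the score from multiple matches. Centring on all 646 loci moved the median shift of the occupied loci by 0.20, after which the class other had a median of -0.16 with 6 of 14 genes lower in both replicates.

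The change of SINEs against tRNA genes was 0.068 with means, 0.083 for loci above the cutoff in all 4 libraries, 0.11 with no occupancy filter and 0.16 for loci with a mean score from 2 to 5. It was 0.17 to 0.31 when 1 library was left out. The corresponding ranges were -2.33 to -0.13 for Rn4.5S, -1.98 to -0.09 for Rn5S and -0.92 to -0.28 for the class other. Rn4.5S without loci over 50% multiple matches gave -0.19 from 8 genes, and for Rn5S that alternative left no locus. For a single locus, many alternatives leave the shift as it is by construction, so that its sign could not change. These are the filters, the replicate block, the fits of the 4 libraries or of occupied loci, and leaving out a TP0 or TP48 library. Their values are counted below among those that kept their direction. Of 815 values of 41 named loci under alternatives, 793 kept their direction and call, 19 changed sign while not called and 3 Rn5S loci were called without TP36 replicate 1.

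Same-numbered deviations from the time point means had r = -0.28 between TP36 and TP60, 0.53 between TP0 and TP36, 0.29 between TP48 and TP60 and 0.02 to 0.10 in the other pairs of time points. Since not every pair was over 0.1, the numbers were not taken to pair the libraries. With the replicate block 0 loci were called on either scale (16 at an unadjusted p under 0.05 on relative scores). The class differences with the block were 0.24 for SINEs, -1.23 for Rn4.5S, -1.03 for Rn5S and -0.60 for the class other. They equal the main values by construction, since a mean of differences by replicate is the difference of the means. They therefore cannot show whether pairing matters. A crossed pairing of the 4 libraries, chosen after seeing the data, also called 0 loci on either scale.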
